A study of Talpa occidentalis with 6 samples.

Results

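FGF9 and the genes around it in the Iberian mole (Talpa occidentalis) were described from the gene annotation that was deposited with the study. Gene, mRNA, exon and CDS rows were taken for FGF9 and for RUBCNL, MICU2, LRCH1 and ZDHHC20, the genes that flank it in the mole annotation. Each of the 5 symbols had 1 gene model and no further copy, out of 23336 gene models in all, and together they had 59 exon rows. The study itself profiled open chromatin by ATAC-seq, in which a transposase cuts accessible DNA, in wild-type moles at postnatal day 7. It covered the ovarian portion of the ovotestis (2 samples), the testicular portion of the ovotestis (2 samples) and the testis (2 samples). The gonads were broken up into single cells, and no transgene or treatment is named for any group. The 3 deposited mole chromatin segmentations lie on the assembly talOcc4, and the annotation on the earlier talOcc3. They share 0 scaffold names, so no chromatin state was read at FGF9 and everything that follows is a description of gene positions, without replicates and without a test.

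FGF9 is a secreted fibroblast growth factor that signals through FGF receptors on neighbouring cells. In the fetal mouse gonad it acts together with SOX9 to promote Sertoli cell differentiation and opposes WNT4, which acts on the ovarian side. Genes of this kind are often controlled by enhancers far outside the gene, so the order of the sequence around them matters for when and where they are read. An inversion in the mole with an end beside FGF9 is named here from background knowledge alone. The study's paper was not read for this report and gave no positions. The positions below were set against the RefSeq order of the mole and the human order of the genes.

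The 5 genes followed each other on scaffold 38 of talOcc3 in the order LRCH1, RUBCNL, FGF9, MICU2, ZDHHC20, with no other model between them. They were models 77 to 81 of the 119 models on that scaffold and spanned 1.93 Mb. The gap between RUBCNL and FGF9 made up 68.8% of that span. FGF9 lay at 11731991 to 11761319 on the minus strand. RUBCNL, whose product acts in autophagy, lay at 10381222 to 10406007 on the plus strand. LRCH1, a protein with leucine-rich repeats and a calponin homology domain, lay at 10102629 to 10198983 on the minus strand. MICU2, a regulator of calcium uptake into mitochondria, lay at 11893652 to 11939441 on the plus strand. ZDHHC20, a palmitoyltransferase, lay at 11978079 to 12031195 on the plus strand.

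The strands set which ends of the genes face each other. FGF9 turned its 3′ end towards RUBCNL, and RUBCNL turned its own 3′ end towards FGF9. These convergent genes were 1326.0 kb apart between their facing ends and 1380.1 kb apart between their 5′ ends. On the other side FGF9 and MICU2 were divergent, with 132.3 kb between their 5′ ends. LRCH1 and RUBCNL were also divergent, 182.2 kb apart. MICU2 and ZDHHC20 ran in tandem, with 38.6 kb between them. The stretch on the 3′ side of FGF9 was thus 10.0 times as long as the stretch on its 5′ side.

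**Figure D1:**
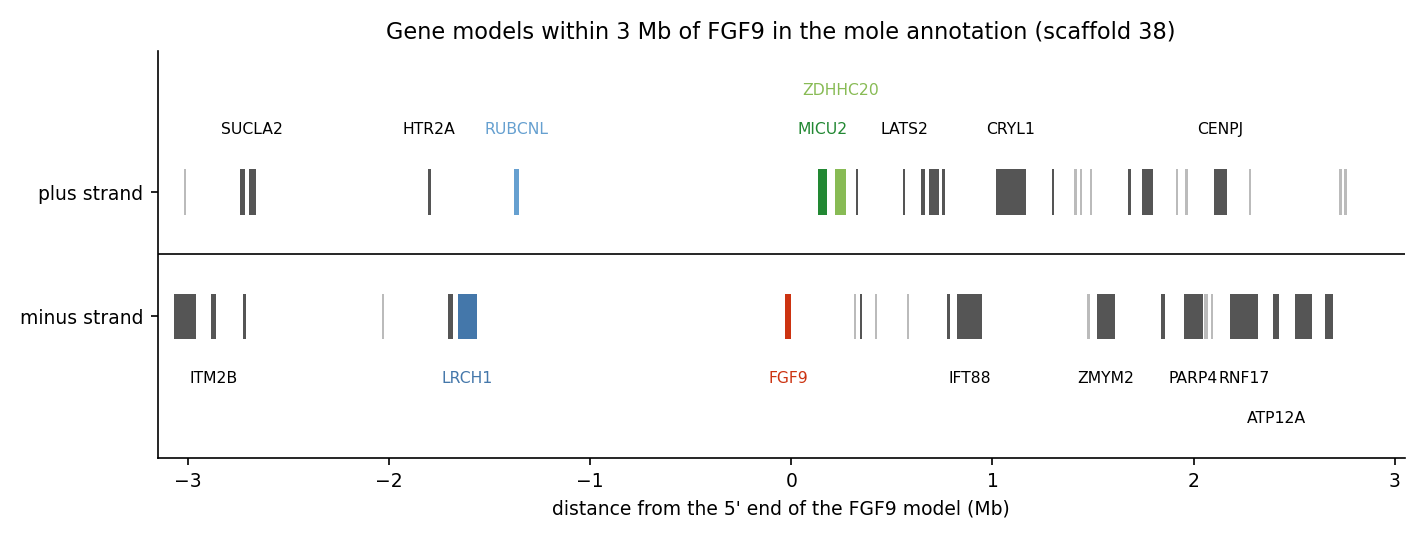
Gene models within 3 Mb of FGF9, by strand, against the distance in Mb from the 5′ end of the FGF9 model. Boxes are gene spans, grey boxes are single-exon models, short models are widened so that they can be seen, and the 5 described genes are coloured. The RUBCNL side (left) is empty for 1326.0 kb, while 13 models lie within 1 Mb on the MICU2 side (right).

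FGF9 was the most compact coding unit of the 5 in exon number and coding length, spread over long introns. Its model had 3 coding exons, of 277, 104 and 243 bp from the 5′ to the 3′ end, which sum to 624 bp or 208 codons. The introns between them were 9250 bp and 19455 bp long. The gene spanned 29.3 kb, of which 2.13% was coding. RUBCNL, with a similar span of 24.8 kb, held 13 exons and 1968 bp of coding sequence, or 7.94% of its span. Its introns ran from 461 to 5626 bp, so the longest of them was shorter than either intron of FGF9.

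LRCH1 was the largest of the genes. It spanned 96.4 kb and had 19 exons, of 23 to 138 bp, with 1770 bp of coding sequence and introns of 101 to 18612 bp. MICU2 spanned 45.8 kb with 11 exons and 1137 bp of coding sequence. ZDHHC20 spanned 53.1 kb with 13 exons and 1170 bp of coding sequence. The coding length was a multiple of 3 in each of the 5 models, and in 87.8% of all models. Exon and CDS rows coincided in each of the 23336 models, so the annotation marks coding sequence alone, and distances to a gene's end are distances to its coding sequence.

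Set beside the 17567 models of 2 or more exons, FGF9 had few exons and a long intron. Its exon number was higher than that of 11.6% of these models, its span longer than that of 72.2%, and its longest intron longer than that of 86.4%. The span of LRCH1 was longer than that of 92.6%, of ZDHHC20 84.6%, of MICU2 82.0% and of RUBCNL 67.9%. Each of the 5 genes was thus longer than the median multi-exon model, which spanned 12.8 kb.

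The models came from different tracks of the annotation. The FGF9 model carried the source label exonerate, and the other 4 carried the label EVM. Of the 5944 models labelled exonerate, 79.4% had a single exon and 7.08% had 3 or more, as FGF9 had. Among the 14981 models labelled EVM, 94.07% had 3 or more exons. Each mRNA row also names a target transcript and the aligned range, and for all 5 genes the target bore the gene's own symbol. The alignment covered the whole coding length of FGF9, RUBCNL and LRCH1, but 82.7% of that of MICU2 and 83.8% of that of ZDHHC20. In both partly aligned models the unaligned bases lay mainly at the 5′ end, since the alignments began at coding base 192 and at coding base 191. The distance from FGF9 to MICU2 is measured to such an unaligned 5′ end.

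**Figure D2:**
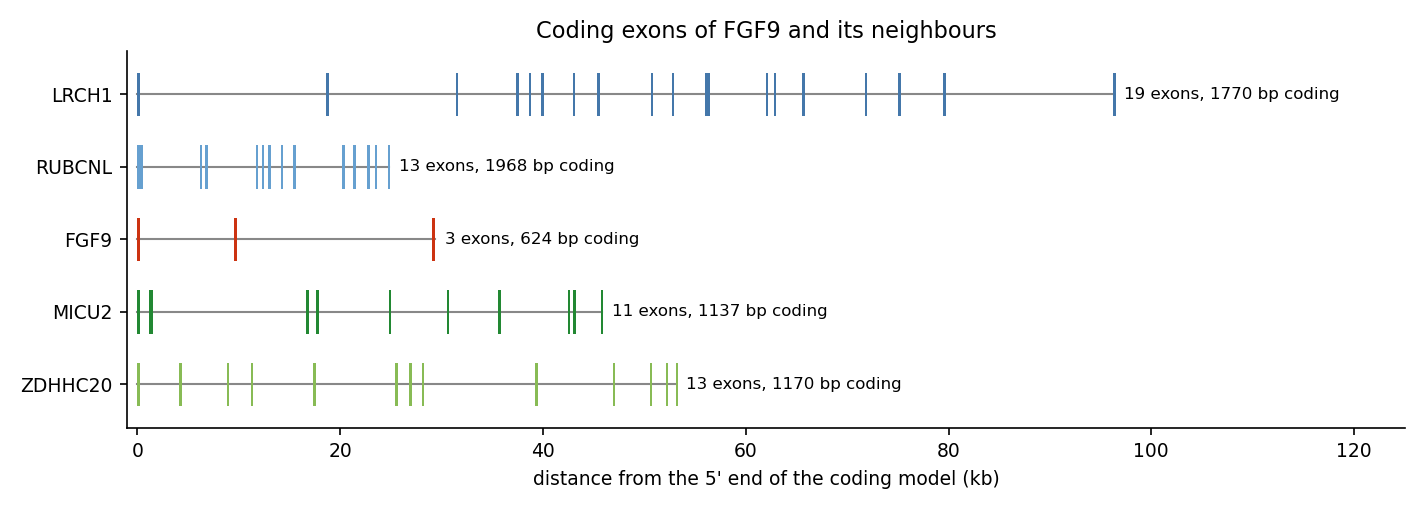
Coding exons (boxes) and introns (lines) of LRCH1, RUBCNL, FGF9, MICU2 and ZDHHC20, drawn from the 5′ end of each coding model in kb and to scale, except that short exons are widened to be seen. FGF9 has 3 exons over 29.3 kb, against 13 for RUBCNL over 24.8 kb.

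The gap between RUBCNL and FGF9 was among the longest in the annotation. There were 20408 gaps between neighbouring models, with a median of 16.3 kb, and 59 of them, or 0.289%, were at least as long as this one (95% Wilson interval 0.224% to 0.373%, counting error only). Gaps of at least 1 Mb numbered 137, or 0.671%. It was also the longest of the 110 gaps on scaffold 38, where the median was 39.8 kb. The next longest there were the gap between DLEU7 and KCNRG, of 814 kb, and that between SUCLA2 and CCDC59, of 627 kb. The other gaps between the described genes were not extreme: the gap between LRCH1 and RUBCNL was longer than 91.3% of all gaps, that between FGF9 and MICU2 longer than 88.3%, and that between MICU2 and ZDHHC20 longer than 68.8%. Without the models whose name marks them as a further copy, the share of gaps as long as that between RUBCNL and FGF9 was 0.573%. The unsequenced part of the gap is unknown, since no sequence of talOcc3 was used here.

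**Figure D3:**
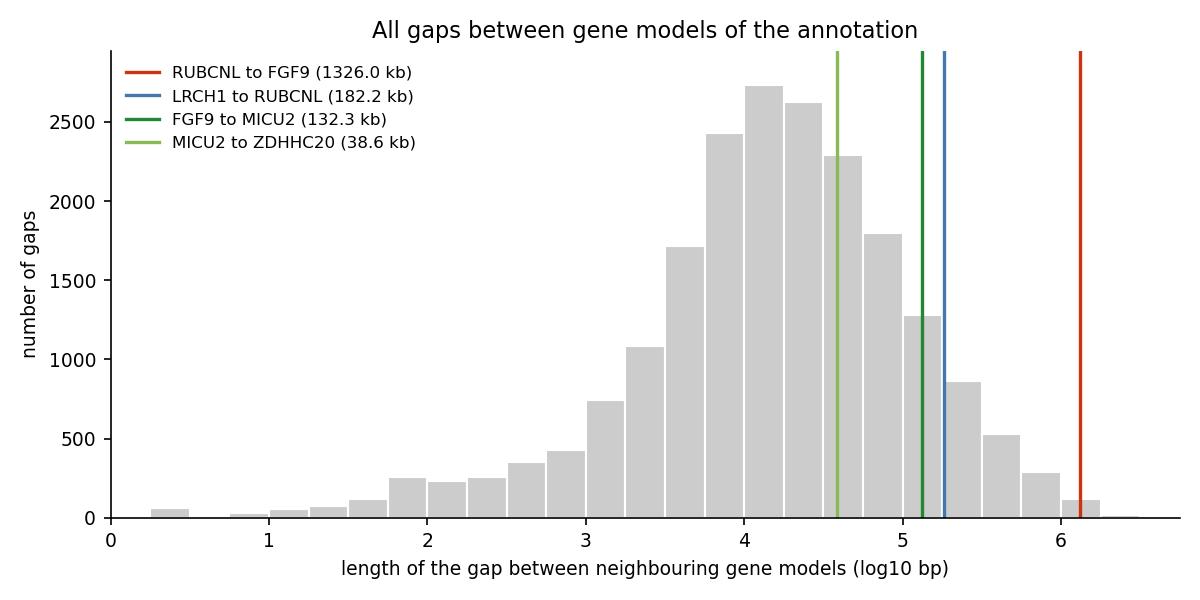
Number of gaps between neighbouring gene models by length (log10 bp), with the gaps among the described genes as vertical lines. The gap between RUBCNL and FGF9, 1326.0 kb, lies in the far right tail, and that between MICU2 and ZDHHC20, 38.6 kb, is the shortest of those marked.

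Within 3 Mb either side of FGF9 there were 51 other models, unevenly divided. The RUBCNL side held 11 of them and the MICU2 side 40. Within 1 Mb the RUBCNL side held 0 and the MICU2 side 13. Over the 18299 models whose scaffold had models to at least 1 Mb on both sides, the median was 14 models per side within 1 Mb, 1 more than on the MICU2 side of FGF9. The sides of FGF9 differed by 13 models, against a median difference of 7, and 26.4% of these models had a difference at least as large, so the imbalance itself was common. An empty side was rarer: of the 20650 models with a neighbour on both sides, 1.25% had no other model within 1 Mb on at least one side. The last model of scaffold 38 ended 2.75 Mb past FGF9, and the length of the scaffold beyond it is not known here, so the MICU2 side may be covered for less than 3 Mb.

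On the RUBCNL side, beyond LRCH1, lay ESD (esterase D) at 1654.3 kb from FGF9 and HTR2A (a serotonin receptor) at 1767.6 kb. They were followed by SUCLA2 (a subunit of the mitochondrial succinyl-CoA ligase) at 2632.9 kb, MED4 (a Mediator subunit) at 2688.6 kb and ITM2B (a membrane protein) at 2830.5 kb. LPAR6, a receptor for lysophosphatidic acid, stood near the edge of the window at 2989.5 kb as a single exon of 1032 bp. All 11 models on this side carried a symbol that is also in RefSeq, without a copy suffix. On the MICU2 side 25 of the 40 models did. The share over all models is not given here, and a shared symbol does not show that a model is that gene. A single exon was found in 2 of the 11, against 24.7% of all models.

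The MICU2 side began, beyond ZDHHC20, with a cluster of small genes. MRPL57 (a mitochondrial ribosomal protein) lay 311.1 kb from FGF9, SKA3 (a kinetochore protein) 320.6 kb and SAP18 (a subunit of histone deacetylase complexes) 340.5 kb. LATS2, a kinase of the Hippo pathway, followed at 555.6 kb with 6 exons. Further out were XPO4 (a nuclear transport receptor) at 684.3 kb, IL17D (a cytokine) at 771.7 kb, IFT88 (a protein of ciliary transport) at 825.2 kb and CRYL1 at 1016.4 kb. The connexin genes GJB6, GJB2 and GJA3 stood together at 1407.9 kb, 1434.5 kb and 1485.0 kb as single-exon models on the plus strand. ZMYM2, ZMYM5, PSPC1 and MPHOSPH8 followed between 1519.7 kb and 1840.1 kb. Of the 40 models on this side, 17 had a single exon and 7 carried a copy suffix. Over the whole annotation 24.7% of models had a single exon, and 18081 of the 23336 models carried no copy suffix. The differences were not tested.

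The order around FGF9 was compared with the RefSeq gene table of a later mole assembly, MPIMG_talOcc4v2.1, which was used for the order of genes alone. RefSeq gave the same chain of coding genes, LRCH1, RUBCNL, FGF9, MICU2, ZDHHC20, with no coding gene between any of them. It listed 4 long non-coding RNA genes between RUBCNL and FGF9 and 1 between FGF9 and MICU2. The long gap is thus free of coding models in both sources but not of annotated transcripts. Both are assemblies of the same species, and the labels do not say that they come from different animals. The shared order is therefore not taken as independent evidence. The window held 37 genes, FGF9 included, that had a symbol in both sources. Of their 36 neighbouring pairs, 30 (83.3%, 95% Wilson interval 68.1% to 92.1%) were also neighbours in RefSeq, and 6 were not. The interval treats the pairs as independent, which they are not, since pairs in a row share a gene. Over the whole annotation 92.8% of pairs were neighbours in RefSeq and 7.24% were not, a difference that was not tested.

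All 6 broken pairs involved CCDC59, SYPL1 or PSMC6. Each of these was a single-exon model in the window whose symbol belonged to a second model elsewhere with more exons. PSMC6, a proteasome subunit, had 1 exon on scaffold 38 and a copy of 15 exons on scaffold 6. SYPL1 had 1 exon on scaffold 38 and a copy of 6 exons on scaffold 17, and CCDC59 had 1 exon and a copy of 2 exons on scaffold 19. With only genes that have a single model, 100% of the pairs in the window were shared with RefSeq. The share over the whole annotation under that filter is not given here, and the 92.8% above is without it.

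In the human order, given here as background, the neighbour of RUBCNL opposite LRCH1 is not FGF9 but LRRC63, with LCP1 next. In the mole these genes were on scaffold 6 of talOcc3, LRRC63 at 52264007 to 52294937 on the minus strand and LCP1, an actin-bundling protein, at 52346054 to 52381833 on the plus strand. They were 51.1 kb apart and were thus still neighbours of each other, while RUBCNL was on scaffold 38. RefSeq likewise had no gene between LCP1 and LRRC63. Counted in coding genes from FGF9, with the RUBCNL side negative, RefSeq placed RUBCNL at -1, LRRC63 at -133 and LCP1 at -134. LRRC63 and the scaffold ends named below were singled out after their positions were seen.

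The RefSeq table names no scaffold for these genes, and a run was taken to last as long as the start positions did not fall. FGF9, RUBCNL, LRRC63 and LCP1 were on the same run by this rule. Such a run can join scaffolds, and whether these genes share one was not checked. The positions of -133 and -134, the other RefSeq counts from FGF9 and the RefSeq neighbours named here rest on it. The counts of genes give the order and do not place a break point within a gap, nor show in which lineage the order changed.

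On talOcc3 the genes on the LRCH1 side of RUBCNL filled most of scaffold 38. From NBEA to RUBCNL, 61 genes with a single model lay there in a stretch of 9.99 Mb, and 55 of their 60 neighbouring pairs were also neighbours in RefSeq. The scaffold began near NBEA, which was its second model. In RefSeq the next gene beyond NBEA was RFC3, a subunit of replication factor C, whereas on talOcc3 RFC3 stood beside RBM26 on scaffold 6, 598.7 kb away. RefSeq placed RBM26 next to OBI1 instead. With RefSeq read by runs, the assemblies thus differed at RFC3 and gave the same coding neighbours for RUBCNL and FGF9. Whether the run joins scaffolds at RFC3 was not checked.

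**Figure D4:**
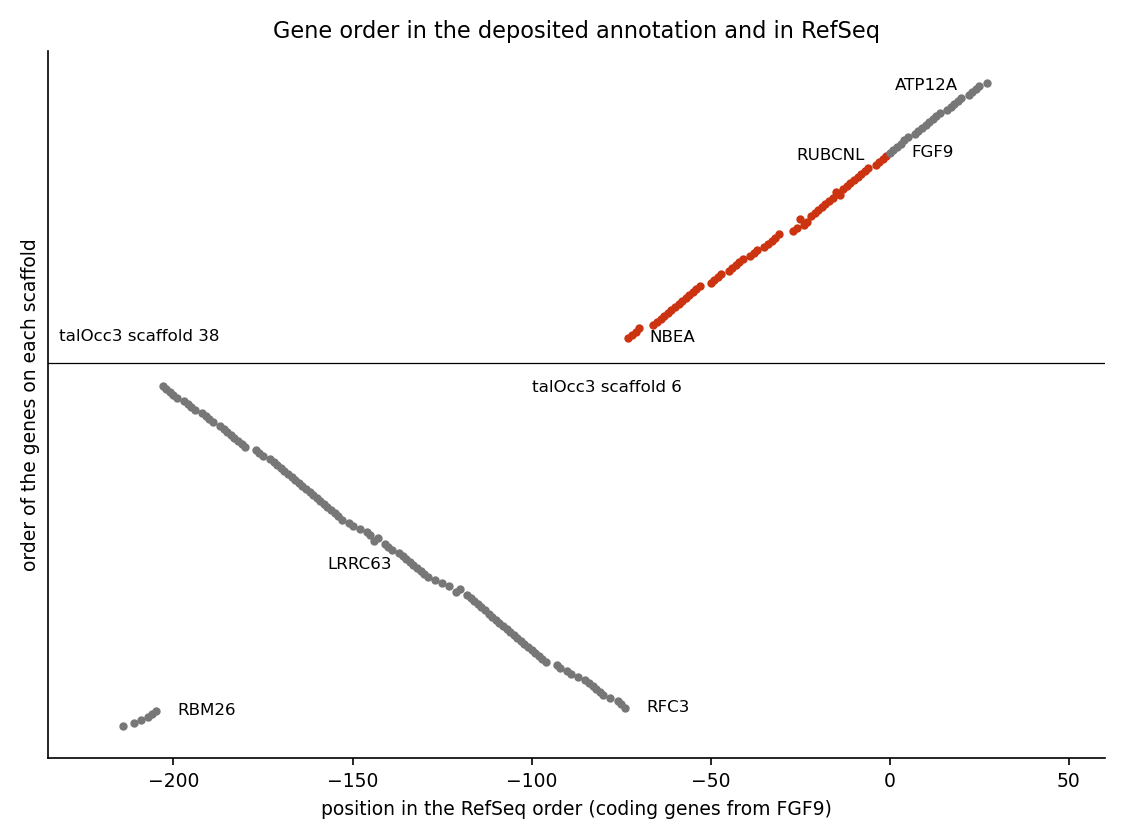
Order of single-copy symbols on scaffolds 6 and 38 of talOcc3 (vertical, by rank) against their position in the RefSeq order, in coding genes from FGF9 (horizontal). Points are the genes on the plotted stretch of the RefSeq order, red from NBEA to RUBCNL on scaffold 38. The red points end at RUBCNL, beside FGF9, while LRRC63 lies on scaffold 6 at position -133.

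Genes were also listed by their place in the human order and looked up in the mole annotation. All 7 genes listed on the near side of FGF9, from LATS2 through ZDHHC20 and MICU2 to FGF9, lay on scaffold 38 in the same order and within 0.56 Mb of FGF9. All 7 genes listed past RUBCNL, from LRCH1 to ITM2B, also lay on scaffold 38, within 2.83 Mb of FGF9. Of the 12 genes listed up to and including RUBCNL, 9 lay on scaffold 6 beyond LRRC63, among them LCP1, CPB2, ZC3H13, SIAH3 and COG3. The model named TPT1 lay on scaffold 5, with a copy of 7 exons on scaffold 6, and no model was named CBY2. A model with the earlier symbol of CBY2, SPERT, lay on scaffold 6 at 52740338 to 52750681. RUBCNL alone of that list was next to FGF9.

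Of the 8 genes listed past FGF9 in the human order, 5 lay on scaffold 6 and 3 on scaffold 38. Among the 5 were TNFRSF19 (a receptor of the tumour necrosis factor family), MIPEP (a mitochondrial peptidase) and SPATA13, at -130, -129 and -127 in the RefSeq count, near LRRC63. PARP4, RNF17 and ATP12A lay on scaffold 38 at 1.95 Mb, 2.18 Mb and 2.40 Mb from FGF9, on the MICU2 side. In RefSeq they were likewise on the MICU2 side, 22 to 25 coding genes from FGF9.

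FGF9 was then set among the other FGF ligand genes. Of 22 ligand symbols, 19 had a model, each with 1 copy. No model bore the symbol of FGF2, FGF3 or FGF19, and RefSeq lists 2 of these 3. FGF9 had the widest gap on either side of any ligand: its larger flank was 1326.0 kb, against 469.7 kb for FGF14 and 443.5 kb for FGF13, which came next. The median larger flank of the 19 ligands was 147.1 kb, and that of all models 32.3 kb. FGF16 and FGF20, the closest relatives of FGF9, had larger flanks of 78.2 kb and 147.1 kb. At the other end, FGF11 had neighbours within 3.6 kb on both sides. The nearer neighbour of FGF9, MICU2, was also far by comparison with most ligands, and the ligands whose nearer neighbour was farther still were FGF12 (275.3 kb), FGF10 (259.8 kb) and FGF1 (238.6 kb).

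**Figure D5:**
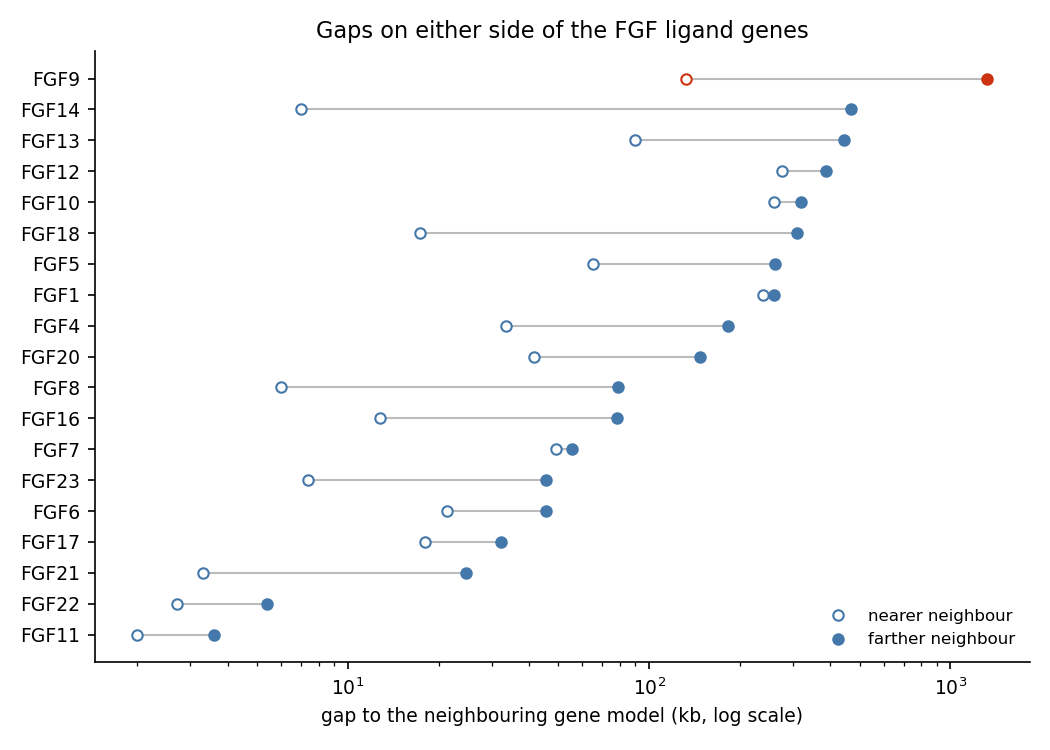
Gap in kb (log scale) from each of the 19 annotated FGF ligand genes to its nearer (open) and farther (filled) neighbouring model, sorted by the farther one. FGF9 (red) has the longest farther gap, 1326.0 kb, and a nearer gap of 132.3 kb.

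FGF9 shared its exon number and the length of its middle exon with most of the ligand models. Of the 19 ligand models, 12 had 3 coding exons. The share of models with exactly 3 coding exons over the whole annotation is not given here. A coding exon of exactly 104 bp, the length of the middle exon of FGF9, occurred in 15 of the 19. FGF9 is among the 15 by definition, since the length was taken from it. Over all models of 3 or more exons 6.3% held an exon of that length. Of the 19 ligand models, 18 had 3 or more exons, and the 15 were all among them. The ligands are paralogs, so they are not independent of each other. FGF8, FGF17 and FGF18, which form a subfamily, had an exon of 107 bp and none of 104 bp, and FGF4, with 2 coding exons, had neither. FGF20 had exons of 286, 104 and 243 bp, so its middle and last exons matched those of FGF9 in length. The FGF16 model was divided into 5 exons, of 25, 104, 242, 73 and 198 bp, and shared only the length of 104 bp with FGF9.

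In other genes of FGF signalling the larger flank was shorter than that of FGF9. Of the 5 receptor genes, FGFR1, FGFR2, FGFR3 and FGFR4 had models, with larger flanks of 35.4 kb to 412.5 kb, the longest at FGFR2. Of 13 co-receptors and intracellular partners, 12 had a model. Their larger flanks ran from 18.9 kb at FRS3, an adaptor of the receptors, to 590.0 kb at DUSP6, a phosphatase that limits the signal. Of the 12 genes that act with or against FGF9 in the gonad, all had a model, and the larger flank reached 1 Mb in SOX9 alone, at 1422.0 kb. SOX9 was a single-exon model of 841 bp, a length that is not a multiple of 3. WNT4 had a larger flank of 254.6 kb, NR5A1 138.5 kb and GATA4 72.9 kb. Among the FGF ligands, receptors, partners and gonad genes, only FGF9 and SOX9 thus had a model-free stretch of more than 1 Mb beside them. FGF9 was the gene chosen for description, so its place here was set beforehand. Over all models with a neighbour on both sides, 1.25% had no other model within 1 Mb on at least one side. The difference was not tested.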

How the data were processed

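The deposited annotation is a GFF file on talOcc3 with positions in bp; its source column names EVM, exonerate and ALN, per the file itself, and how the models were joined and named is not stated there. The score of the mRNA rows, deposited by the authors, was not used. The 3 mole segmentations, deposited by the authors as 1 file per tissue on talOcc4, were read for scaffold names alone; STAR 2.6.1d and the mouse build mm9 appear in the submitters' processing notes without a role, and the depth is unknown. Python 3.11.15 and SciPy 1.17.1 were used. An mRNA was joined to a gene by its parent name, scaffold and span. A gap is a stretch with no model between models of a scaffold. The functions were tested on simulated annotations with known gaps and 1 known inversion. Genes named are the 5 members, models within 3 Mb, the nearest 5 on either side, and fixed lists of human-order, FGF and gonad genes. Members and lists were chosen with earlier results of these data known. RefSeq was matched by symbol, giving 37 genes in the window. Exact names from the annotation were used, so renamed genes (SPERT, now CBY2) went unmatched. Some genes near the locus are not reported here.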

Additional observations from a re-analysis of the deposited data

How the results depend on the processing

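Of 18 values recomputed under another setting, 10 stayed within the limits set and 8 moved. Measured between gene starts, FGF9 and RUBCNL were 1380.1 kb apart. The share of gaps as long as theirs was 0.573% without copy models and 0.592% with multi-exon models only. Models near FGF9 numbered 13 within 1 Mb and 31 within 2 Mb, because the windows are smaller. With single-model genes, 100% of neighbouring pairs in the window were shared with RefSeq, without a share over the whole annotation under that filter. The share of models with no other within 1 Mb on at least one side was 2.08% without copy models and 2.09% with multi-exon models, alternatives chosen after seeing the data. FGF9 had the longest larger flank of the FGF ligands in both of these settings. The planned protein identities and chromatin states at the locus were not run, since no protein sequences were used here and no file places the genes on talOcc4. No paired analysis was possible because the results come from 1 annotation, which has no samples.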

Other observations

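Symbols without a copy suffix did not always mark the model with the most exons. TPT1, which lies between KCTD4 and SLC25A30 in RefSeq, had 8 models. The one named TPT1 was a single exon on scaffold 5, and the one named TPT1_copy5, on scaffold 6 among the genes beyond LRRC63, had 7 exons. CYCS, cytochrome c, had 5 models, and the one named CYCS stood as a single exon of 318 bp between CENPJ and ATP12A on scaffold 38, inside the span of RNF17. XPO4 had 2 models next to each other on the plus strand of scaffold 38, of 5 and 18 exons, where RefSeq lists 1 gene.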
